A study of Homo sapiens with 12 samples.

Results

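The guanylate-binding proteins GBP1 to GBP5 were followed through a pulse of type I interferon, an interferon-free interval and another pulse in AC16 cells. The members were the 5 rows of the deposited count table whose Ensembl identifiers carry these symbols, out of 60649 identifiers in all. All 5 passed the filter on low counts, which kept 18119 genes.

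Guanylate-binding proteins are large GTPases of the dynamin superfamily that hydrolyse GTP to GDP and, for some members, to GMP. They are made after interferon exposure, most strongly after interferon gamma, and assemble into coats on bacteria and on the vacuoles of intracellular pathogens. On Gram-negative bacteria, GBP1 starts a coat that recruits other members and caspase-4, which cleaves gasdermin D and starts pyroptosis. GBP1, GBP2 and GBP5 carry a lipid anchor at the C terminus, whereas GBP3 and GBP4 are recruited to coats by other members.

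AC16 is a human line made by fusing adult ventricular heart cells with virus-transformed fibroblasts. It is labelled WT, and all 12 libraries carry one batch label. Each of the 4 groups held 3 libraries, described as independent biological replicates. Acute cells received recombinant human IFN-α2a at 1000 U/mL and were collected when the 24 h pulse ended. Recovery cells had the same 24 h pulse and then 5 d without cytokine, with harvest on day 6. Repeat cells had a 24 h pulse, 4 d without cytokine and a further 24 h pulse; their labels give day 7, although the stated times add to 6 d. Vehicle cells received PBS and are labelled 24 h, although the treatment protocol mentions equivalent intervals. Recovery or repeat against vehicle or acute cells is therefore also a contrast of labelled time in culture, and the 2 cannot be told apart. Repeat and recovery cells likewise differ in labelled harvest day (7 against 6) and in time without cytokine (4 d against 5 d). In bulk RNA, fewer cells of a type and less RNA per cell cannot be told apart either.

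Total estimated counts ran from 39.9 to 62.3 M per library. Cardiomyocyte identity was weak in these libraries: 4 of 15 cardiomyocyte markers passed the filter, their summed TPM (transcripts per 1000000, a level per length) was 5.05 to 7.74 over all libraries, and GATA4 supplied 3.39 to 6.37 of it. MYL7 was at 0, MYH6 and MYH7 had at most 1 count and TNNT2 at most 14. All 10 fibroblast markers passed the filter, with summed TPM of 2101 to 2231 in acute, 2335 to 2407 in recovery, 1846 to 1948 in repeat and 2728 to 2815 in vehicle libraries. Blood cell markers summed to 269 to 294, 137.5 to 146, 274 to 286 and 111 to 117 TPM in acute, recovery, repeat and vehicle libraries, almost all of it CD68. The other blood cell markers tested did not follow CD68 in acute against vehicle cells. CD14 was lower (-0.80 on the log2 scale, adjusted p = 0.0119, edgeR) and PTPRC did not pass (-0.22, adjusted p = 0.401, edgeR). The part of these marker shifts in the differences below was not tested.

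The 5 genes lie in the same cluster on chromosome 1 (GRCh38, GENCODE release 44 coordinates), all on the minus strand. GBP3 (ENSG00000117226.12) spans 89006679 to 89022894 and GBP1 (ENSG00000117228.11) spans 89051882 to 89065360. GBP2 (ENSG00000162645.13) spans 89106132 to 89150456, GBP4 (ENSG00000162654.9) spans 89181144 to 89198942 and GBP5 (ENSG00000154451.14) spans 89256189 to 89272860. The canonical transcript has 12 exons in GBP5 and 11 in each of the other members. GBP7 overlaps GBP2 and otherwise lies between GBP2 and GBP4. GBP6 lies beyond GBP5, and the run from GBP3 to GBP6 covers 381.5 kb.

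The sequences upstream of these genes are shown because 4 of the 5 genes rose with interferon and 1 did not. RefSeq promoter windows on GRCh38.p14, from 250 bases before to 50 after each annotated start, were found for 3 members: GBP1 (chr1:89065159-89065458), GBP3 (chr1:89022817-89023116) and GBP4 (chr1:89198893-89199192), all minus strand and written 5′ to 3′. GBP2 and GBP5 had no window and are named only. The member that was not called, GBP2, can therefore not be compared with the members shown. Capitals mark matches to the interferon-stimulated response element core (GAAANNGAAA, a site type found upstream of many genes induced by type I interferon) and to the gamma-activated site (TTCNNNGAA, found upstream of many genes induced by interferon gamma), searched on both strands.
GBP1: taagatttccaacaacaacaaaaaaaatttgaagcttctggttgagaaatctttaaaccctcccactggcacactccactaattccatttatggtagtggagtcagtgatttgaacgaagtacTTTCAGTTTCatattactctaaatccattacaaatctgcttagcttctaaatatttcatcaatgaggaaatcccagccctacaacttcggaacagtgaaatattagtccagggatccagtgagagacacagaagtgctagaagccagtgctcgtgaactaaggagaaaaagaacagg
GBP3: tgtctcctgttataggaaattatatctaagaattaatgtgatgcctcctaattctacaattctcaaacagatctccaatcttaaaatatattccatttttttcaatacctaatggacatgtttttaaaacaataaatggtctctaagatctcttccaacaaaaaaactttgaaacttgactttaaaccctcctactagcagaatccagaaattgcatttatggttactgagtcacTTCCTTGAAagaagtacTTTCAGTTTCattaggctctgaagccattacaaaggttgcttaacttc
GBP4: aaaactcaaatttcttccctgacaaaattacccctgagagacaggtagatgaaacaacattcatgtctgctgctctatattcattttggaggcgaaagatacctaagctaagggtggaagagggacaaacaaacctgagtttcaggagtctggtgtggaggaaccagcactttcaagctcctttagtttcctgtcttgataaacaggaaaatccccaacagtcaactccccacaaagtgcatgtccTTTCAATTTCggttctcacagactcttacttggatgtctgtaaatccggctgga
The response element core was present in all 3 windows, each time on the opposite strand, so that it reads TTTCNNTTTC here. Of 35116 promoter windows of this length, 3.57% held that core, 7.66% held the gamma-activated site and 0.439% held both. GBP1 and GBP3 carried the same 10 letters, TTTCAGTTTC, but the first base lay 127 bases before the start in GBP1 and 3 bases into the transcript in GBP3. The start used by the RefSeq table for GBP1 lies 152 bases downstream of the outermost GENCODE start, against 28 bases for GBP3. Counted from the outermost GENCODE starts, the 10 letters lie downstream of the start in both genes. The contrast in position between GBP1 and GBP3 therefore depends on the annotation. GBP4 carried TTTCAATTTC, whose first base lay 4 bases before the start of GBP4, so that the match runs across that start. GBP3 also held the gamma-activated site TTCCTTGAA, 15 bases before its start, and the 2 motifs do not overlap. The windows of GBP6 and GBP7 held neither motif. These matches describe letters in a window; binding was not measured.

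**Figure D1:**
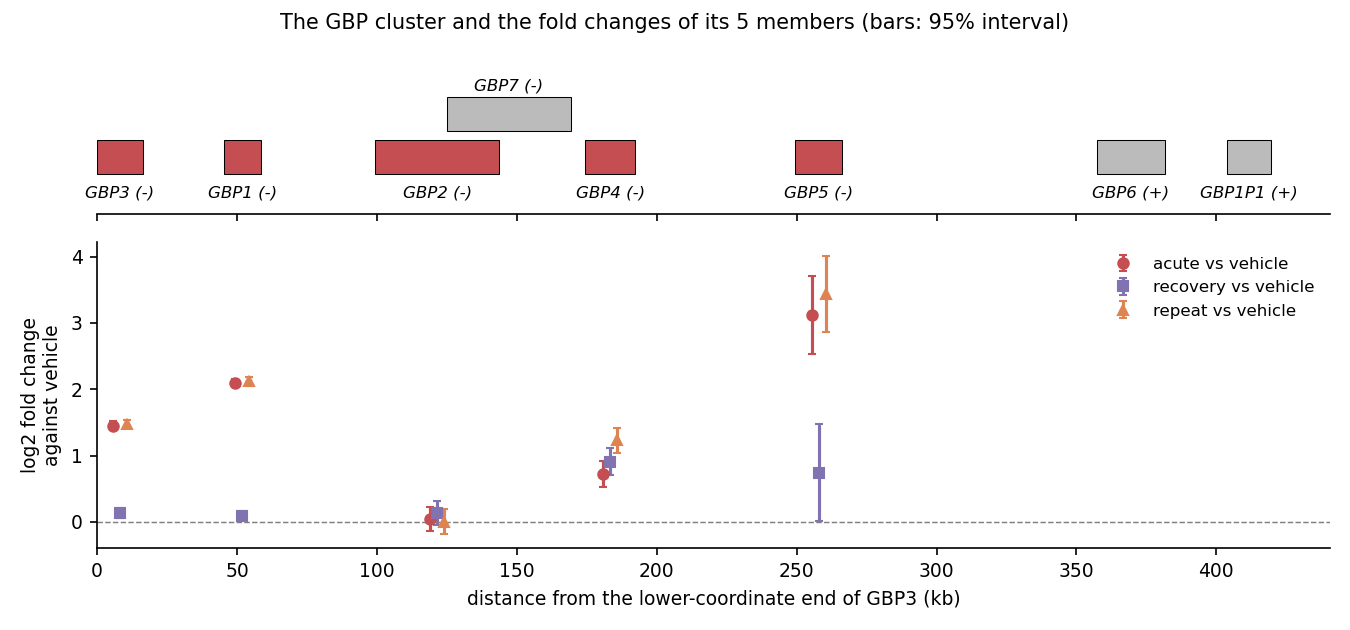
The GBP cluster drawn to scale (top; x axis, distance in kb; red, the 5 members; grey, GBP6, GBP7 and GBP1P1) and the log2 fold change of each member in acute, recovery and repeat cells against vehicle (bottom; bars, 95% interval). GBP2, at 0.05, 0.14 and 0 in acute, recovery and repeat cells, sits between GBP1 (2.10, 0.09 and 2.12) and GBP4 (0.72, 0.91 and 1.23).

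The first comparison asked what a 24 h pulse did to each member. GBP1, GBP3, GBP4 and GBP5 rose in acute cells and GBP2 did not pass the test, so that 4 of 5 members were called higher. Over all 18119 genes tested, 22.3% were called higher and 21.5% lower in this comparison, and the median log2 fold change was 1.45 over the 5 members and 0 over all genes. Levels are given below in counts per 1000000 (CPM), scaled between libraries by TMM, which makes libraries comparable for 1 gene but does not adjust for gene length. Tests are edgeR's quasi-likelihood test, two-sided, with Benjamini-Hochberg adjustment over all genes tested and a threshold of 0.05. The error given after a log2 fold change is its standard error. Statements on overlap between groups describe the libraries only, because the share of all genes that separate likewise was not counted.

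GBP1, the member that starts the coat, had 146, 145 and 152 CPM in acute libraries against 35.7, 33.8 and 33.6 CPM in vehicle libraries. Every acute library lay above every vehicle library. The log2 fold change was 2.10 ± 0.031 (4.28-fold, adjusted p = 1.44e-28, edgeR), and 0.767% of tested genes had a larger one. GBP3, a coat member recruited after GBP1, had 76.7, 74.8 and 78.4 CPM in acute and 27.9, 29.0 and 27.0 CPM in vehicle libraries. These groups did not overlap either, and the log2 fold change was 1.45 ± 0.033 (2.74-fold, adjusted p = 6.33e-24, edgeR).

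GBP5, which acts at the Golgi and has been linked to inflammasome assembly, had the largest fold change of the 5 and the lowest counts. It was estimated at 112, 55.01 and 76 counts in acute libraries and at 11, 6 and 12 counts in vehicle libraries. Scaled for depth, this was 1.99, 1.39 and 1.77 CPM in acute against 0.193, 0.136 and 0.26 CPM in vehicle libraries, with no overlap. The log2 fold change was 3.12 ± 0.285 (8.70-fold, 95% interval 2.53 to 3.71 on the log2 scale, adjusted p = 1.05e-09, edgeR). The intervals of GBP5 and GBP1, 2.03 to 2.16 for GBP1, did not overlap, although a test between the genes was not run. On log2(TPM + 0.5), where low values are compressed, the GBP5 change was 1.07 and still called.

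GBP4, recruited to GBP1 coats in human cells, rose least among the members called. It had 7.26, 6.71 and 7.27 CPM in acute against 4.61, 3.78 and 4.48 CPM in vehicle libraries, without overlap (log2 fold change 0.72 ± 0.098, 1.65-fold, adjusted p = 1e-06, edgeR). The call was lost with limma on log2(TPM + 0.5), at 0.50 (adjusted p = 0.127), on log2(TPM + 0.1), at 0.68 (adjusted p = 0.102), and with an offset for gene length in edgeR, at 0.73 (adjusted p = 0.0895).

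GBP2, a lipid-anchored member that acts with GBP5 in inhibiting the protease furin, had 6.53, 5.24 and 6.24 CPM in acute and 5.52, 5.72 and 6.30 CPM in vehicle libraries. The 2 groups overlapped throughout, with the lowest and the highest of the 6 values both in acute libraries. The log2 fold change was 0.05 ± 0.09 (adjusted p = 0.714, edgeR), with a 95% interval of -0.14 to 0.23. That interval lies below the lower bounds of the other members, the nearest of which was 0.52 for GBP4.

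**Figure D2:**
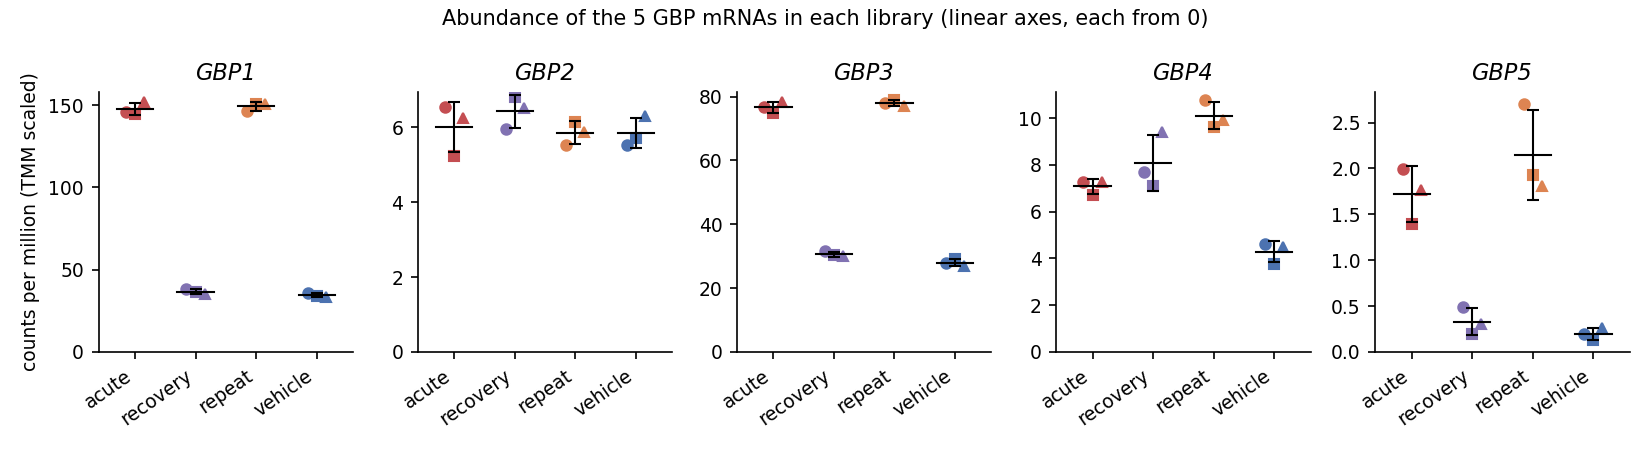
CPM (y axis, linear, TMM scaled) of each member in the 3 acute, 3 recovery, 3 repeat and 3 vehicle libraries; points are libraries (circle, square and triangle for replicates 1, 2 and 3), the horizontal line is the mean and the bar the SD. GBP1, GBP3 and GBP5 sit high in acute and repeat libraries and low in recovery and vehicle libraries, GBP2 stays between 5.24 and 6.80, and GBP4 is highest in repeat libraries.

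Recovery against acute cells asked how far each member came back 5 d after the pulse. GBP1, GBP3 and GBP5 fell, that is 3 of 5 members called lower, while 20.7% of all tested genes were called lower and 20.4% higher. GBP1 had 38.3, 36.5 and 35.5 CPM in recovery libraries, all below the acute values (log2 fold change -2.01 ± 0.031, adjusted p = 4.54e-28, edgeR). GBP3 had 31.5, 30.5 and 29.9 CPM, likewise below every acute library (-1.32 ± 0.033, adjusted p = 6.25e-23). GBP5 had 22, 9 and 15 counts, or 0.493, 0.195 and 0.308 CPM, and its log2 fold change was -2.38 ± 0.264 (adjusted p = 4.09e-08, edgeR). GBP2, at 5.94, 6.80 and 6.52 CPM in recovery libraries, overlapped the acute group (0.09 ± 0.089, adjusted p = 0.463).

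GBP4 was not called lower. Its recovery libraries had 7.71, 7.10 and 9.39 CPM, overlapping the 6.71 to 7.27 CPM of acute libraries. The log2 fold change of recovery against acute was 0.19 ± 0.091 (adjusted p = 0.105, edgeR), with a 95% interval of 0 to 0.38. Without recovery replicate 2, the lowest of the 3, the change was 0.27 and passed (adjusted p = 0.0242), and without recovery replicate 3, the highest, it was 0.06 (adjusted p = 0.635).

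What stood above the vehicle level after the interval was read from recovery against vehicle cells. Here 3.03% of all tested genes were called higher and 2.91% lower, and 2 of 5 members were called higher: GBP4 and GBP3. GBP4 lay above vehicle in every recovery library (log2 fold change 0.91 ± 0.097, 1.88-fold, 95% interval 0.71 to 1.11, adjusted p = 4.54e-07, edgeR), and 0.844% of tested genes had a larger change. With limma on log2(TPM + 0.5) the GBP4 change was 1.13 and just missed the threshold (adjusted p = 0.0506), and with the gene length offset it was 1.56 and passed.

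GBP3 was higher in recovery by a small amount, 30.6 ± 0.792 CPM against 28.0 ± 0.985 CPM in vehicle libraries (SD, n = 3 each), with no overlap between the groups. Its log2 fold change of 0.13 ± 0.036 (1.09-fold, adjusted p = 0.0284, edgeR) missed the threshold without recovery replicate 1 (0.11, adjusted p = 0.132), recovery replicate 2 (0.13, adjusted p = 0.0745), vehicle replicate 1 (0.13, adjusted p = 0.103) or vehicle replicate 3 (0.11, adjusted p = 0.139), and on both log2 TPM scales and with the gene length offset (adjusted p = 0.573 to 0.586). GBP1 differed by 0.09 ± 0.035 (95% interval 0.02 to 0.16, adjusted p = 0.142, edgeR), and its recovery libraries, 35.5 to 38.3 CPM, overlapped the vehicle range of 33.6 to 35.7 CPM. GBP5 differed by 0.74 ± 0.354 (adjusted p = 0.285) at 9 to 22 counts, and over the alternatives this value ran from -0.28 to 1.01. GBP2 differed by 0.14 ± 0.089 (adjusted p = 0.479, edgeR).

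The response to another pulse was read from repeat against recovery cells. Recovery cells had a longer interval without cytokine, so they are not repeat cells just before that pulse. The same 4 members that rose after the first pulse were called higher, while 21.1% of all tested genes were called higher and 20.5% lower. GBP1 had 146, 151 and 151 CPM in repeat libraries (log2 fold change against recovery 2.02 ± 0.031, adjusted p = 2.79e-28, edgeR) and GBP3 had 78.0, 78.8 and 77.0 CPM (1.35 ± 0.032, adjusted p = 2.71e-23). GBP5 had 147, 119 and 88 counts, or 2.71, 1.92 and 1.81 CPM (2.69 ± 0.258, adjusted p = 2.85e-09). All repeat libraries of these 3 genes lay above all recovery libraries, which was not set against the share of all genes that separate likewise.

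GBP4 had 10.8, 9.62 and 9.93 CPM in repeat libraries, above the 7.10 to 9.39 CPM of recovery libraries. Its change was the smallest of those called (0.32 ± 0.086, adjusted p = 0.00359, edgeR) and was lost on log2(TPM + 0.5), at 0.31 (adjusted p = 0.373), on log2(TPM + 0.1), at 0.35 (adjusted p = 0.423), and with the gene length offset, at 0.36 (adjusted p = 0.42). GBP2 had 5.54, 6.14 and 5.87 CPM in repeat libraries and overlapped the recovery group (-0.13 ± 0.088, adjusted p = 0.247, edgeR).

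Repeat against acute cells compared the ends of the 2 pulses directly. GBP4 was the 1 member of 5 called (higher), with 1.77% of all tested genes higher and 2.43% lower. Its repeat libraries, 9.62 to 10.8 CPM, lay above its acute libraries, 6.71 to 7.27 CPM (log2 fold change 0.51 ± 0.088, 1.42-fold, adjusted p = 0.00111, edgeR). On log2(TPM + 0.5), on log2(TPM + 0.1) and in the length-offset fit the change was larger, at 0.94, 1.13 and 1.18, but did not pass (adjusted p = 0.213, 0.23 and 0.204). For GBP1 and GBP3 the differences were bounded narrowly, at 0.02 with 95% intervals of -0.04 to 0.07 and -0.04 to 0.08 (adjusted p = 0.791 and 0.746, edgeR). GBP5 was less precisely bounded, at 0.31 (-0.12 to 0.74, adjusted p = 0.488), and GBP2 was at -0.04 (-0.23 to 0.14, adjusted p = 0.87).

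Repeat against vehicle cells, which share the vehicle libraries with the comparisons above, gave 4 of 5 members higher against 23.4% of all genes higher and 22.9% lower. The log2 fold changes were 2.12 ± 0.031 for GBP1, 1.48 ± 0.033 for GBP3, 1.23 ± 0.093 for GBP4 and 3.43 ± 0.278 for GBP5, with adjusted p of at most 9.56e-11 (edgeR). GBP2 was at 0 ± 0.089 (adjusted p = 0.978).

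Whether the response to the later pulse (repeat over recovery) differed from that to the first (acute over vehicle) was tested as an interaction. Repeat over recovery also carries the differences in interval and labelled harvest day. The edgeR test called 0 of 5 members, with 0.221% of all tested genes called higher and 0.43% lower. At an unadjusted p under 0.05 there were 2, GBP3 and GBP4. DESeq2 gave an adjusted p for 1 member, GBP1, which it did not call, and none for the other 4, and limma on log2(TPM + 0.5) called 0 of 5. For GBP4 the estimate was smaller for the later pulse but not called (-0.40 ± 0.131 on the log2 scale, unadjusted p = 0.00564, adjusted p = 0.223, edgeR). With limma it was -0.19 (adjusted p = 0.935) on log2(TPM + 0.5) and -0.33 (adjusted p = 0.905) on log2(TPM + 0.1). GBP3 was at -0.11 ± 0.047 (unadjusted p = 0.031, adjusted p = 0.4, edgeR). GBP1 was at -0.07 ± 0.044, GBP2 at -0.18 ± 0.126 and GBP5 at -0.43 ± 0.409.

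**Figure D3:**
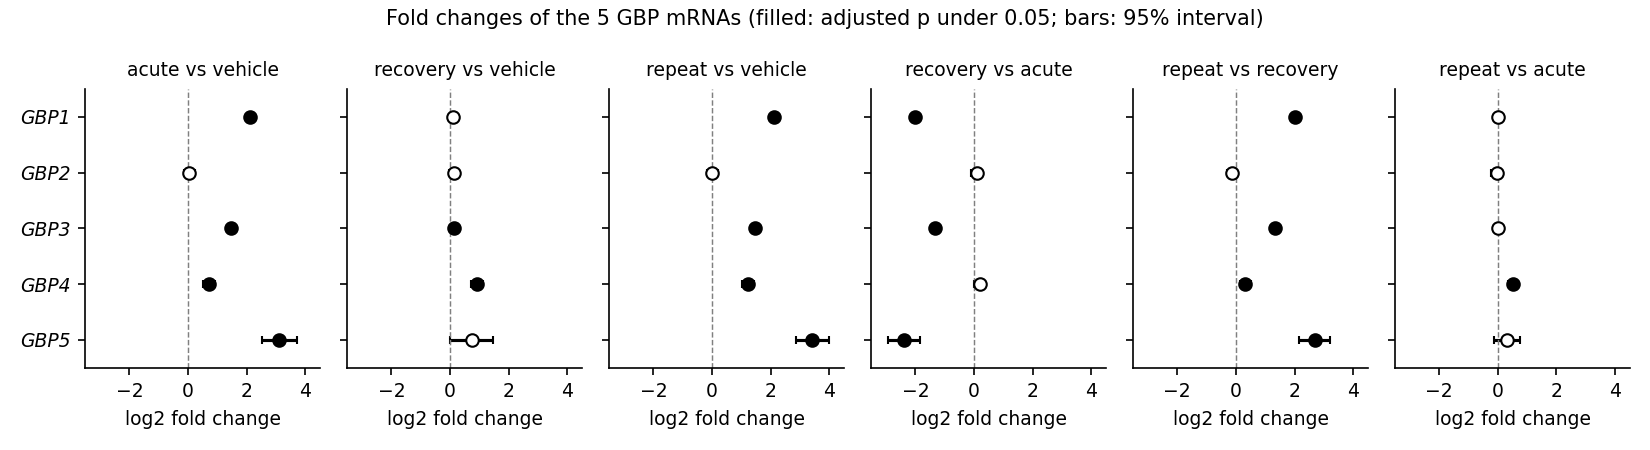
Log2 fold change (x axis) of each member in the 6 pairwise comparisons, the first-named group over the other; bars are 95% intervals and filled points passed the threshold (edgeR, adjusted p under 0.05). Recovery against acute shows GBP1, GBP3 and GBP5 between -2.38 and -1.32 with GBP4 at 0.19, and repeat against acute shows GBP4 alone filled.

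The deposited TPM table allowed levels to be compared between genes. Summed over the 5 members, TPM was 111.35 ± 6.77 in acute, 40.93 ± 2.62 in recovery, 118.97 ± 3.53 in repeat and 36.17 ± 1.80 in vehicle libraries (SD, n = 3 each). GBP3 was highest in each group, at 56.9 ± 2.53, 22.4 ± 1.79, 60.1 ± 2.47 and 20.4 ± 1.72 TPM in acute, recovery, repeat and vehicle cells. GBP1 followed at 48.6 ± 3.06, 12.3 ± 1.53, 51.3 ± 1.59 and 11.4 ± 0.508 TPM. The ranges of the 2 genes did not overlap within any group.

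GBP2 ranked below GBP3 and GBP1 in acute, recovery and vehicle cells, at 3.56 ± 0.654, 3.85 ± 0.525 and 3.47 ± 0.371 TPM, and had 3.74 ± 0.488 TPM in repeat cells. GBP4 had 1.35 ± 0.501, 2.32 ± 0.437, 3.00 ± 0.622 and 0.79 ± 0.24 TPM in acute, recovery, repeat and vehicle cells. In repeat cells its libraries, at 3.49, 2.30 and 3.20 TPM, overlapped those of GBP2, at 3.58, 4.29 and 3.36 TPM. GBP5 was lowest, at 0.848 ± 0.399, 0.089 ± 0.055, 0.895 ± 0.44 and 0.127 ± 0.113 TPM, although its acute libraries (0.960, 0.405 and 1.18 TPM) overlapped those of GBP4 (0.945, 1.19 and 1.91 TPM).

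The make-up of the summed TPM of the 5 members moved with treatment. GBP1 held 43.7%, 30.0%, 43.1% and 31.6% of it in acute, recovery, repeat and vehicle cells, and GBP2 held 3.19%, 9.46%, 3.16% and 9.65%. GBP3 held 51.2%, 54.7%, 50.5% and 56.2%. GBP4 took its largest share in recovery cells, 5.69% ± 1.10, against 1.21% ± 0.411 in acute cells and 2.18% ± 0.615 in vehicle cells (SD, n = 3 each).

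The order of GBP1 and GBP3 depended on the length used. Counts were also divided by the length of the canonical annotated transcript (2883 bases for GBP1 and 3037 for GBP3). The quotients were then rescaled within each library, which gives TPM recomputed on annotated lengths. This put GBP1 first in every group. Acute cells had 114 ± 2.87 for GBP1 and 56.2 ± 1.43 for GBP3 (recomputed TPM, SD, n = 3 each). Vehicle cells had 26.8 ± 0.838 for GBP1 and 20.7 ± 0.742 for GBP3. On that scale GBP4 was above GBP2 in repeat cells, at 3.65 ± 0.241 against 3.17 ± 0.138, and its mean was below that of GBP2 in acute, recovery and vehicle cells. How the authors chose gene lengths for TPM is not given in the sources used here, so which of GBP1 and GBP3 is more abundant was not settled by these files. The shares moved with that choice: of the summed group means per annotated length, GBP1 made 64.5%, 49.5%, 64.1% and 51.2% in acute, recovery, repeat and vehicle cells, and GBP3 made 31.8%, 39.2%, 31.7% and 39.6%. GBP2 made 1.9%, 6.1%, 1.8% and 6.1% on that scale, and GBP4 made 1.5%, 5.1%, 2.0% and 3.0%. On both scales GBP1 had a larger share in acute and repeat than in recovery and vehicle cells, and GBP3 a smaller one.

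**Figure D4:**
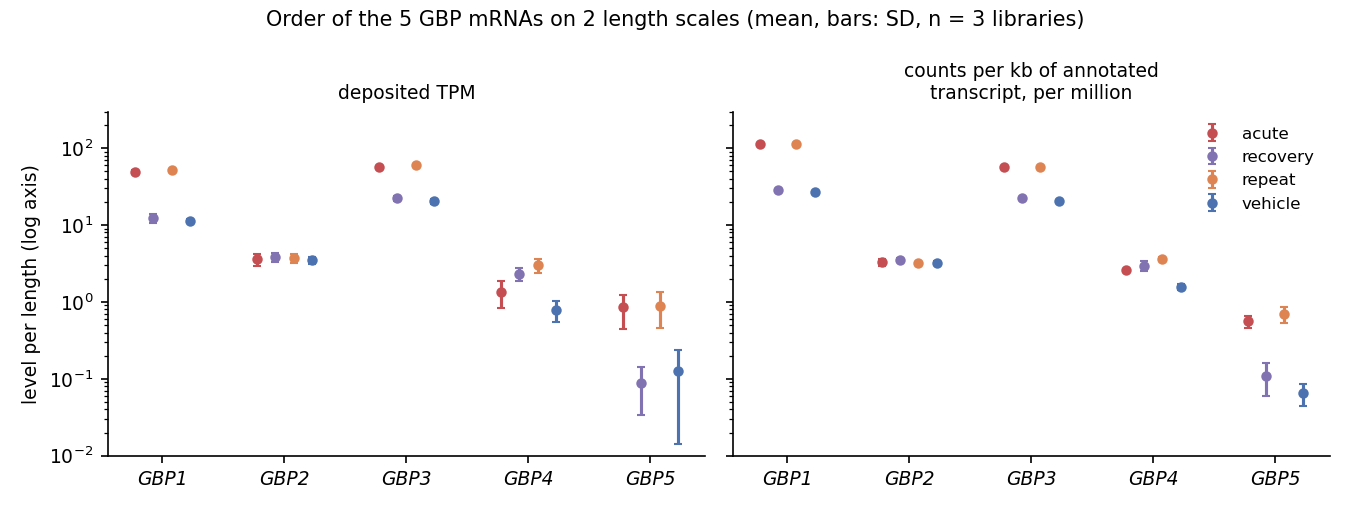
Level per length (y axis, log scale) of the 5 members as deposited TPM (left) and as TPM recomputed on canonical annotated transcript lengths (right). Points are group means and bars SDs over 3 libraries. GBP3 exceeds GBP1 on the left in each group (56.9 against 48.6 TPM in acute cells) and GBP1 exceeds GBP3 on the right (114 against 56.2).

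For GBP4, counts and TPM gave different sizes of change. The gene length implied by the 2 tables (counts divided by TPM, set to a mean of 1 in vehicle libraries) was 1.38, 1.00 and 0.68 in acute, 0.49, 0.66 and 0.70 in recovery, 0.55, 0.73 and 0.55 in repeat and 0.76, 0.89 and 1.36 in vehicle libraries. Every recovery and repeat library lay below every vehicle library, while the acute libraries spanned the range. Its coefficient of variation over the 12 libraries was 36.6%, exceeded by 2.0% of 13916 genes compared, whereas GBP1 and GBP3 were at 5.2% and GBP2 at 7.8% and the median gene at 4.97%. GBP5 was at 38%, at counts of 6 to 147. The TPM of GBP4 was 2.74, 1.87 and 2.36 in recovery libraries against 1.05, 0.742 and 0.578 in vehicle libraries, a wider gap than in CPM. The annotation lists 3 GBP4 transcripts, of 457 to 6141 bases, of which 1 is protein-coding. Which transcripts the reads came from was not analysed here.

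**Figure D5:**
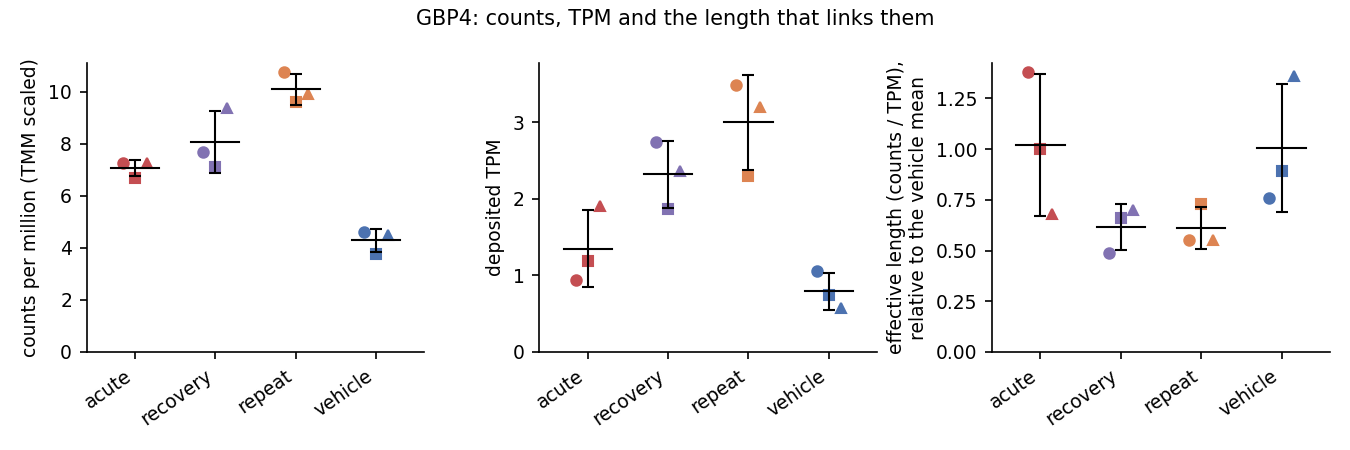
GBP4 in each library as TMM-scaled CPM (left), deposited TPM (middle) and implied gene length relative to the vehicle mean (right); points are libraries, lines means and bars SDs (n = 3). Recovery and repeat libraries are high in TPM and low in implied length (0.49 to 0.73), whereas vehicle libraries run from 0.76 to 1.36.

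Close relatives can share reads, which bears on single members. The coding sequences of GBP1 and GBP3 are 91.6% identical, those of GBP1 and GBP2 82.4%, and those of GBP2 and GBP3 82.9%, while GBP4 is 66.5% to 67.7% identical to the other members and 85.5% to GBP7. All windows of 75 bases (the read length) in the canonical transcripts were searched for in transcripts of other genes. Exact matches were found for 5.5% in GBP1, 1.1% in GBP3, 0.2% in GBP2 and 1.3% in GBP4. Those of GBP1 lay mostly in the pseudogene GBP1P1, whereas those of GBP4 lay in genes outside the family, such as CASP10. Estimated counts were not whole (beyond 0.005) in 12 of 12 libraries for GBP1 and in 11 of 12 for GBP2 and for GBP3, but in 1 of 12 for GBP4 and for GBP5. How reads were divided among relatives is not given in the sources used here, so the levels of GBP1, GBP2 and GBP3 carry that uncertainty.

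The other genes of the cluster were scarce. GBP6 had at most 2 counts and GBP7, which overlaps GBP2 on the same strand and shares 23.3% of its windows with it, at most 7. GBP1P1 had 3.94 to 24.68 counts and was not called between acute and vehicle cells (0.99 ± 0.412, adjusted p = 0.0531, edgeR). It was called lower in recovery against acute cells (-1.40, adjusted p = 0.0101) and higher in repeat against recovery cells (1.30, adjusted p = 0.0158, edgeR), although 42.2% of its windows occur in other annotated genes. Annotated antisense transcripts overlap GBP2, GBP4 and GBP5 and had at most 1, 3 and 0 counts. Of 7 genes flanking the cluster, 2 rose and 2 fell in acute against vehicle cells, with a median of -0.08, close to the 22.3% and 21.5% of all genes. GTF2B, a general transcription factor, rose by 0.29 ± 0.044, LRRC8C, a subunit of a volume-regulated anion channel, by 0.15 ± 0.041, while LRRC8D fell by 0.15 and the kinase PKN2 by 0.12 on the log2 scale. PKN2 turned to 0.08, 0.08 and 0.06, uncalled, on the 2 log2 TPM scales and with the gene length offset, and LRRC8D lost its call there. The adjoining genes RBMXL1 (-0.07 ± 0.04) and LRRC8B (-0.12 ± 0.169) did not pass. In acute against vehicle cells the changes of GBP1, GBP3, GBP4 and GBP5 were larger than that of any of these 7 neighbours, but this was not tested as such. In recovery against vehicle cells LRRC8C was higher by 0.25 ± 0.04 (adjusted p = 0.000165, edgeR), more than GBP1, GBP2 or GBP3, a call lost at 0.12 to 0.13 on both TPM scales and in the length-offset fit.

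Genes listed for the transcription of GBP genes, with carriers and inhibitors of interferon signals together, moved both ways. Of 17 tested, 11 rose and 4 fell in acute against vehicle cells, where 22.3% of all genes rose and 21.5% fell, with a median log2 fold change of 0.28 against 0 over all genes. IRF9, a DNA-binding factor of the type I interferon response, rose by 2.33 ± 0.034. IRF1, a transcription factor that drives GBP genes, rose by 0.58 ± 0.044, and USP18, which damps receptor signalling and has a near-identical copy that makes its own value uncertain, by 6.60 ± 0.092. The receptor kinase JAK1 fell by 0.33 and the inhibitor SOCS3 by 0.11 on the log2 scale (adjusted p = 0.0114), the call on SOCS3 being lost without acute replicate 2 or vehicle replicate 2 (-0.10 in both) and in both TPM fits and the length-offset fit.

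In recovery against vehicle cells, where GBP4 was called higher, 3 of these 17 were higher and 1 lower, against 3.03% and 2.91% of all genes. USP18 was higher by 0.95 ± 0.197 (adjusted p = 0.0123, edgeR) and IRF1 by 0.16 ± 0.046 (adjusted p = 0.0393). USP18 missed the threshold without vehicle replicate 3, at 0.90 (adjusted p = 0.0591), on log2(TPM + 0.5), at 0.62 (adjusted p = 0.0572), and on log2(TPM + 0.1), at 0.93 (adjusted p = 0.0647). The IRF1 call was lost in 10 of 20 alternatives, including every one that left out a recovery library. IRF9 had -0.14 ± 0.043 (adjusted p = 0.0587, edgeR). Interferon genes themselves gave little signal: of 7, only IFNE passed the filter, with 6 to 23 counts and a log2 fold change of 0.89 ± 0.412 in acute cells (adjusted p = 0.0827, edgeR). IFNG, IFNA1, IFNL1, IFNL2 and IFNK were at 0 counts in every library, and IFNB1 had at most 3.

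Partners of the GBP coat were followed as lists. Among 11 inflammasome and pyroptosis genes tested, 7 rose and 2 fell in acute against vehicle cells (all genes, 22.3% and 21.5%), with a median of 0.34. CASP4, the lipopolysaccharide-binding caspase that GBP coats recruit, rose by 0.63 ± 0.037 and CASP1, the caspase of canonical inflammasomes, by 0.92 ± 0.106. The DNA sensor AIM2 rose by 2.07 ± 0.477, although at only 3 to 34 counts per library. The pore former GSDME fell by 0.20 and NINJ1, which ruptures the plasma membrane, by 0.18 on the log2 scale. In recovery against vehicle cells CASP4 (-0.07 ± 0.04), CASP1 (0.04 ± 0.112) and AIM2 (1.39 ± 0.509, adjusted p = 0.119, edgeR) did not pass.

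Among 22 coat, galectin and autophagy partners, 13 rose and 5 fell in acute cells (all genes, 22.3% and 21.5%), with a median of 0.18. LGALS9, a galectin that binds exposed glycans on damaged vacuoles, rose by 5.19 ± 0.11, and UBE2L6, the conjugating enzyme for ISG15, by 3.06 ± 0.042. ATG5 and GABARAPL2, which serve autophagosome formation, fell by 0.24 and 0.18 on the log2 scale. Of 13 relatives among the large GTPases, 5 rose and 5 fell (all genes, 22.3% and 21.5%), with a median of -0.04. The antiviral MX2 and MX1 rose by 9.42 ± 0.131 and 7.73 ± 0.078, and DNM1, which pinches off endocytic vesicles, fell by 0.44. ATL3, an atlastin that shapes the endoplasmic reticulum and is structurally close to the GBPs, fell by 0.38, a value that was -0.09, -0.09 and -0.12 and uncalled on the 2 log2 TPM scales and with the gene length offset.

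Enzymes that modify or restrain GBPs were listed too. Of 6 prenylation and CaaX-processing enzymes, 3 rose and 1 fell in acute cells (all genes, 22.3% and 21.5%), with a median of 0.06. RCE1 and ZMPSTE24, proteases of prenylated proteins, rose by 0.22 ± 0.054 and 0.15 ± 0.025, and the methyltransferase ICMT fell by 0.14. In the list of kinase control and protease targets, 2 of 9 tested rose and 5 fell (all genes, 22.3% and 21.5%), with a median of -0.12. PIM1, a kinase reported to hold GBP1 in the cytosol by phosphorylation and 14-3-3 binding, fell by 0.87 (SE 0.039, adjusted p = 8.11e-17, edgeR). PIM1 was also lower in recovery than in vehicle cells, at -0.34 ± 0.037 (adjusted p = 3.39e-07, edgeR). PIM2 fell by 0.27 in acute cells. FURIN, the protease that GBP2 and GBP5 inhibit, rose by 0.18 ± 0.034, and PCSK7, a related convertase, by 0.15 ± 0.031. In both TPM fits and the length-offset fit the calls on RCE1, FURIN and GSDME were lost.

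The genes whose profiles over the 12 libraries were closest to each member were found among 13973 genes with a symbol and a mean of at least 1 CPM. Likeness was the root mean square distance between log2 CPM profiles, each centred on its own vehicle mean, so that it reflects group means and shared library effects. GBP1 was closest to the peptide transporter subunit TAP2 (0.06), the apolipoprotein APOL1 (0.068) and the aminopeptidase LAP3 (0.072). GBP3 was closest to the retrovirus restriction factor TRIM5 (0.055), the helicase ZNFX1 (0.058) and the MHC class I light chain B2M (0.066). GBP5, whose low counts widen all distances, was closest to the RNA sensor RIGI (0.319), SAMD9L (0.321) and LY6E (0.336).

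GBP4 had other neighbours, the urokinase gene PLAU (0.181), FRMD3 (0.193) and the BMP target ID1 (0.194). These 3 had log2 fold changes against vehicle of 0.77, 0.65 and 0.86 in acute cells, 0.65, 0.90 and 0.75 in recovery cells, and 1.35, 1.22 and 1.18 in repeat cells. GBP2 was closest to INTS15 (0.056), RTN4IP1 (0.068) and NPEPL1 (0.07), all within 0.07 of their vehicle level on the log2 scale in acute, recovery and repeat cells. Between members, GBP1 and GBP3 were closest (0.457), and GBP2 and GBP5 farthest apart (2.199).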

How the data were processed

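Poly(A)-selected, stranded libraries were read as single 75 base reads, per the labels' protocols. The submitters' processing notes list GRCh38.p13, STAR 2.7.11a, featureCounts 2.0.3, Trim Galore 0.6.10, Picard 2.27.5, edgeR and cutadapt 4.3, in no stated order. The design text names GENCODE release 41 and DESeq2, and the culture medium is DMEM/F-12 there but RPMI in the growth protocol. No source used here gives whether counting used strand. Deposited were the authors' estimated counts per gene, unscaled (25.49% of nonzero values were not whole), and TPM. No column was without a sample (0). Symbols came from a gene name table (60463 of 60649 matched).

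Counts were rounded and tested with edgeR 4.0.16 in R 4.3.3 (quasi-likelihood F test, robust, TMM, filterByExpr, 12 libraries in 1 fit; biological coefficient of variation 2.67%) after a test on simulated data. Alternatives used DESeq2 1.42.0, limma 3.58.1 on log2(TPM + 0.5) and log2(TPM + 0.1), upper quartile scaling, no count filter, a gene length offset (counts over TPM), only the groups compared, a replicate block, and each library left out. Coding sequences were aligned with Biopython 1.88. Replicate pairs differed by 1.77 to 2.98 times Poisson noise, so none was merged. P-values measure the spread between these libraries.

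The members, gene lists and tests were chosen with earlier results of these data known. Genes outside the family were named by rule: up to 2 per list and direction with the largest acute change, IRF1, IRF9, CASP4, PIM1, FURIN, the genes beside the cluster, and the 3 most alike in profile. One gene the rule names is not reported here. Proteins are not shown.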

Additional observations from a re-analysis of the deposited data

How the results depend on the processing

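Over 20 alternatives, 671 of 689 values for single members kept their side of the threshold, 660 of them also their direction, 17 lost a call and 1 gained one. The 11 that changed sign were uncalled in both fits. On log2(TPM + 0.5), on log2(TPM + 0.1) and in the length-offset fit, GBP5 was at -0.08, -0.20 and -0.28 in recovery against vehicle (0.74) and at 0.13, 0.28 and 0.37 in the interaction (-0.43), and GBP2 at 0.07, 0.08 and 0.09 in repeat against acute (-0.04). Without acute replicate 1, GBP2 was at 0.03 there and at -0.02 in acute against vehicle (0.05). Among other named genes 38 uncalled values changed sign. The 17 were calls on GBP3 and GBP4, given in the report. The number of members called in recovery against vehicle cells was 2, and it was 0 on log2(TPM + 0.5), 1 on log2(TPM + 0.1), 1 with the gene length offset and 1 to 2 with each library left out. For repeat against acute cells it was 1, and 0 on both log2 TPM scales and with the gene length offset. PKN2, at -0.12 in acute against vehicle cells, was reversed at 0.08, 0.08 and 0.06 in those 3 fits, which share the authors' gene lengths; the cause was not tested.

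Whether replicate numbers pair the libraries was not settled. Deviations of same-numbered libraries correlated only weakly, at -0.082 to 0.076, but 8 of 12 libraries correlated best with their own number. With the replicate number as a block the members called numbered 4 in acute, 2 in recovery and 4 in repeat against vehicle cells, 3 in recovery against acute, 4 in repeat against recovery, 1 in repeat against acute and 0 in the interaction, as without it.

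Counts over all genes shrank on log2(TPM + 0.5), to 4324 from 7938 in acute and 120 from 1076 in recovery against vehicle, 3839 from 7448 in recovery against acute, 3812 from 7546 in repeat against recovery, 6 from 761 in repeat against acute, 4663 from 8391 in repeat against vehicle and 5 from 118 in the interaction. On log2(TPM + 0.1) and with the offset they were 4329 and 4420, 125 and 178, 3843 and 3914, 3830 and 3971, 9 and 10, 4667 and 4777, and 5 and 11 in the same order. With 1 library left out, the counts ran from 624 (without vehicle replicate 1) to 1167 in recovery against vehicle, from 337 (without acute replicate 3) to 1218 (without repeat replicate 1) in repeat against acute, and from 56 to 323 (the same 2 libraries) in the interaction. The interaction gave 235 with DESeq2 and 333 without the filter. Of the recovery against acute calls, 1518 were higher and 2321 lower on log2(TPM + 0.5), against 3696 and 3752. Upper quartile scaling gave 4329 and 3148 there, and 3462 higher and 4478 lower in acute against vehicle, against 4049 and 3889. Of those in repeat against acute, 514 were higher and 453 lower without the filter, against 321 and 440. Counts of 6 to 12 in vehicle libraries limit GBP5.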
